A study of Homo sapiens with 5 samples.

Results

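The genes described here encode the inhibitors of cyclin-dependent kinases (CDKs) together with CDKN3, a phosphatase that bears the same gene name stem. They were chosen by name, with no measured value in the rule, and all 8 members (CDKN1A, CDKN1B, CDKN1C, CDKN2A, CDKN2B, CDKN2C, CDKN2D and CDKN3) were among the 26364 gene names listed. Growing IMR-90 cells, which are untransformed fibroblasts of the human lung, were transfected with siRNA and their mRNA was sequenced 24 hr later. The Ctr-KD group, given a control siRNA, has 2 libraries. The NSD2-KD group has 3, and each of these had its own siRNA (NSD2-1, NSD2-2 or NSD2-3) against NSD2, a histone methyltransferase. No other treatment is given for either group, both were grown in the same medium with serum, and a difference between siRNAs and one between replicates cannot be told apart among the knockdowns. The comparison asks whether transcripts of the CDK inhibitors differed between control and knockdown shortly after transfection.

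CDK inhibitors hold back the kinases that drive cells from G1 into S phase. The CIP/KIP proteins p21 (CDKN1A), p27 (CDKN1B) and p57 (CDKN1C) bind complexes of cyclins with CDKs, while the INK4 proteins p16 (CDKN2A), p15 (CDKN2B), p18 (CDKN2C) and p19 (CDKN2D) bind CDK4 and CDK6 and keep D-type cyclins off them. When these kinases are held back, the RB proteins stay bound to E2F factors and genes of S phase stay silent. In fibroblasts p21, a target of p53, and p16 are the members best known for the arrest of senescent cells. CDKN3 encodes a phosphatase that removes the activating phosphate from CDKs, and its transcript is best known as one that rises toward mitosis.

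Each value below is a normalized count, the number of reads on a gene divided by 1 size factor for its library. The libraries held between 2473691 and 2845063 reads on genes, and a count of 3 reads, the limit below which a gene was not distinguished from 0, came to between 2.76 and 3.28 normalized counts. The knockdown was visible in every library. NSD2, listed under its older symbol WHSC1 (GRCh37 chr4:1873120-1983934), had 463 and 443 normalized counts in the Ctr-KD libraries and 90.2 (NSD2-1), 81.9 (NSD2-2) and 87.9 (NSD2-3) in the NSD2-KD libraries. It fell by 2.37 on the log2 scale (SE 0.12, limma adjusted p = 0.000464), which left 19.9%, 18.1% and 19.4% of the Ctr-KD mean. All 10 fibroblast markers averaged 10 normalized counts or more, with summed levels of 216828 to 221825 in Ctr-KD and 202282 to 228193 in NSD2-KD libraries. None of the 9 markers of epithelium, endothelium and blood reached that mean, and 6 of them were at 0 in every library. Between the 2 controls there was little more than counting noise (chi-square of 1.05 per degree of freedom). Pairs of a control and a knockdown library stood at 3.87 to 5.08, and pairs of knockdown libraries at 5.05 to 5.29. The knockdown libraries thus differed from each other at least about as much as from the controls. The study's methods call the libraries biological replicates, but nothing says that they came from separate cultures, so the p-values measure only the spread between these libraries, which may be technical in part.

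All 8 members passed the minimum mean normalized count of 10 that defined the 11313 genes tested. At an adjusted p under 0.05, limma called 0 of 8 members higher and 0 of 8 lower in NSD2-KD cells, where 0.0354% of all tested genes were called higher and 0.053% lower. At an unadjusted p under 0.05, 1 member (CDKN1A) was higher and 2 members (CDKN2C and CDKN3) were lower, against 4.19% and 4.99% of all tested genes. edgeR's quasi-likelihood test also called 0 members in either direction (backgrounds of 0.0442% higher and 0.0972% lower), as did limma-voom (0.0265% and 0.0619%). DESeq2 on the same reads called 1 member higher, CDKN1A, and 1 member lower, CDKN2C, where 0.149% and 0.407% of its tested genes were called. The median log2 difference of the 8 members was -0.06, beside -0.0089 for all tested genes, and members lay on both sides of 0. In 2 members (CDKN1A and CDKN2B) all 3 NSD2-KD libraries lay above both Ctr-KD libraries, in 2 members (CDKN2C and CDKN3) all 3 lay below, and in the other 4 the groups overlapped. Over all tested genes 13.8% lay wholly above and 13.9% wholly below. For any 1 gene, an exact permutation of 2 against 3 libraries cannot give a two-sided p below 0.1.

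**Figure D1:**
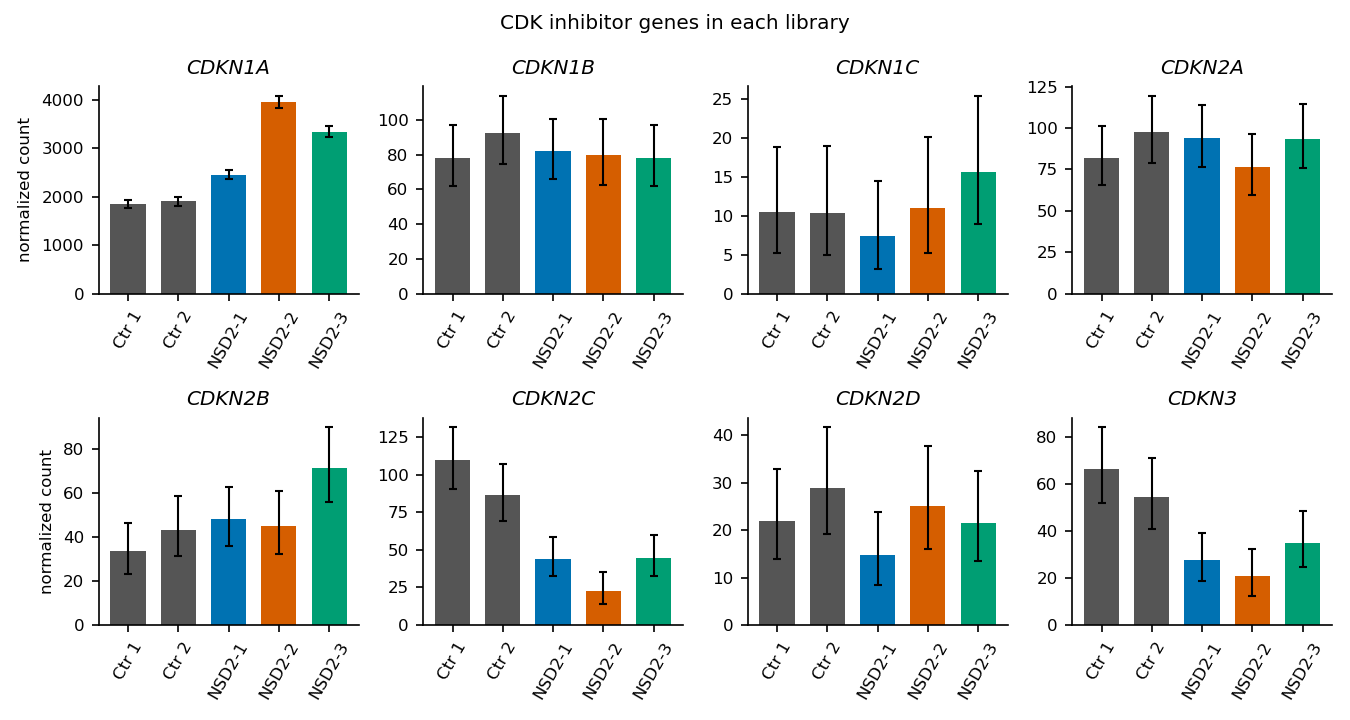
Normalized count (y axis, linear from 0, its own scale in each panel) of the 8 members in each library (x axis: 2 Ctr-KD and 3 NSD2-KD libraries, the latter named by siRNA), with bars for the value and whiskers for the exact 95% Poisson interval of its reads. CDKN1A is above both controls with every siRNA, and CDKN2C and CDKN3 are below them with every siRNA. The whiskers of CDKN1B, CDKN1C, CDKN2A and CDKN2D overlap in all libraries.

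CDKN1A, which encodes p21, was by far the most abundant of these transcripts and the one with the largest positive difference. Its normalized counts were 1851 and 1905 in Ctr-KD cells and 2455, 3955 and 3340 with NSD2-1, NSD2-2 and NSD2-3. Every knockdown library was above both controls, at 131%, 211% and 178% of the Ctr-KD mean. The mean was 1878 ± 38.4 (SD, n = 2) in Ctr-KD and 3250 ± 754 (SD, n = 3) in NSD2-KD cells, a ratio of 1.73, with a log2 difference of 0.76 (SE 0.17, 95% interval 0.36 to 1.16). The limma adjusted p was 0.237 and the edgeR adjusted p 0.181, whereas DESeq2 gave 0.0260 for a log2 difference of 0.79. Of all tested genes, 0.707% had a larger positive difference. In bulk libraries, a change in the share of cells with a transcript and a change in its amount per cell cannot be told apart, which holds for each value given here.

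The siRNAs differed from each other at CDKN1A by more than counting error. The exact 95% Poisson intervals of the reads came to 2363 to 2550 normalized counts with NSD2-1, 3828 to 4086 with NSD2-2 and 3229 to 3454 with NSD2-3, while those of the controls, 1770 to 1935 and 1820 to 1994, overlapped. The intervals cover counting error only, since reads without molecular identifiers are not independent molecules. With the NSD2-1 library left out, the difference was 0.95 and the limma adjusted p 0.0235, past the threshold that it missed with all 5 libraries. Without the NSD2-2 library the difference was 0.61 (adjusted p = 0.186), and over all alternatives tried the adjusted p ran from 0.0235 to 0.9999, the highest with the Ctr-KD libraries taken as 1 sample or with 1 of them left out.

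CDKN1A lies on chromosome 6 (GRCh37 chr6:36644237-36655114, plus strand). Exons of the antisense lncRNA DINOL cover 146 bases of its merged exons, or 4.87%, and since the strand setting of the counting is not given in the sources used here, reads from the shared stretch cannot be assigned to one or the other. The promoter is shown because CDKN1A carried the largest positive difference and because its GC boxes are a textbook feature of the p21 gene. The sequence is from RefSeq on GRCh38.p14 (chr6:36678464-36678763, plus strand), from 250 bases before the start of transcription to 50 bases after it, with matches to the GC box GGGCGG, the letters bound by SP1, in capitals.
CDKN1A promoter: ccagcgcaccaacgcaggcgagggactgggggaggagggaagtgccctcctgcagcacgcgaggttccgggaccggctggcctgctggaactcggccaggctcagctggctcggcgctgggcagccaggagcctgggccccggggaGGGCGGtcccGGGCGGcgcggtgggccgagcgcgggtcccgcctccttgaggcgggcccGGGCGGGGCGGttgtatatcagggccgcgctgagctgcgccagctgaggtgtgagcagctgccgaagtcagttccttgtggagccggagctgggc
It holds 4 GC boxes, beginning at positions -104, -94, -45 and -40 from the start, and 74.3% of its bases are G or C. The search on both strands also covered CCAAT, the CHR element TTTGAA and the E2F words TTTCGCGC, TTTGGCGC and TTCCCGCC, none of which is in this window. A GC box was present in 45.0% of all 35116 RefSeq promoters of the same length, CCAAT in 34.6%, the CHR in 15.2% and an E2F word in 4.24%. GC boxes and the E2F word TTCCCGCC can share bases, and a match describes letters only.

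The other CIP/KIP members showed no difference beyond the spread of the libraries. CDKN1B, which encodes p27 (GRCh37 chr12:12838432-12875303, plus strand), had 78.1 and 92.6 normalized counts in Ctr-KD cells and 81.9, 79.7 and 78.1 in NSD2-KD cells. The groups overlapped, at means of 85.4 ± 10.2 (SD, n = 2) and 79.9 ± 1.91 (SD, n = 3). The log2 difference was -0.09 with a 95% interval of -0.45 to 0.27 (SE 0.16, limma adjusted p = 0.905). CDKN1C, which encodes p57 from an imprinted locus (GRCh37 chr11:2904443-2907005, minus strand), was near the bottom of the tested range with 10.5 and 10.3 normalized counts in Ctr-KD and 7.36, 10.9 and 15.6 in NSD2-KD cells. These rest on 11 and 10 reads and on 8, 10 and 16 reads. The siRNAs lay on either side of the controls, and the difference of 0.06 had a 95% interval of -0.79 to 0.91 (SE 0.37, limma adjusted p = 0.977), an interval wide enough to hold the difference measured for CDKN1A.

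Among the INK4 members, CDKN2C had the largest difference, and it was toward lower levels. CDKN2C encodes p18, an inhibitor of CDK4 and CDK6 known to be transcribed in cycling cells under E2F. Its normalized counts were 109.6 and 86.4 in Ctr-KD cells and 44.2, 22.9 and 44.9 with NSD2-1, NSD2-2 and NSD2-3, which rest on 115, 84, 48, 21 and 46 reads. All 3 NSD2-KD libraries were below both controls, at 45.1%, 23.4% and 45.8% of the Ctr-KD mean, and NSD2-2 was the lowest. The mean was 98.0 ± 16.4 (SD, n = 2) against 37.3 ± 12.5 (SD, n = 3), a ratio of 0.381, and the log2 difference was -1.42 (SE 0.30, 95% interval -2.12 to -0.72). The adjusted p was 0.214 by limma, 0.138 by edgeR and 0.0234 by DESeq2, and ran from 0.0190 to 0.9999 over all alternatives. Of all tested genes, 0.230% had a more negative difference.

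CDKN2C lies on chromosome 1 (GRCh37 chr1:51426417-51440306, plus strand), and 617 bases of its merged exons, or 20.4%, are shared with an antisense lncRNA. RefSeq gives 3 start sites for it, and the promoter of the second is shown because it holds the only E2F word found in the 10 promoter entries of the members. It lies at GRCh38.p14 chr1:50968456-50968755 (plus strand), with GC boxes and the E2F word in capitals.
CDKN2C promoter, start 2 of 3: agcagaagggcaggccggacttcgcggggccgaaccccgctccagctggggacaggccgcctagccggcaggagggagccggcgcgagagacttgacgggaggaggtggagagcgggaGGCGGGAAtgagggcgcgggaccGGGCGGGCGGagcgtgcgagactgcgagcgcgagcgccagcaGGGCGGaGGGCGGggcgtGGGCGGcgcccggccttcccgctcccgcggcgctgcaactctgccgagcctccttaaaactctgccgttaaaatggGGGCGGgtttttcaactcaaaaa
The E2F word begins at position -132 and reads TTCCCGCC on the minus strand. The 6 GC boxes begin at -109, -105, -67, -60, -49 and 28, and 71.3% of the bases are G or C. Start 1 holds none of the motifs and start 3 holds 1 GC box and 1 CCAAT. The gene-level counts do not say which start was used.

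CDKN2B was the INK4 member on the other side. It encodes p15, known as an arrest protein induced by TGF-beta, and had 33.3 and 43.2 normalized counts in Ctr-KD cells and 47.8, 44.8 and 71.3 in NSD2-KD cells. All 3 NSD2-KD libraries lay above both controls, at 125%, 117% and 186% of the Ctr-KD mean, but NSD2-1 and NSD2-2 exceeded the higher control by less than the controls differed from each other. The means were 38.3 ± 6.98 (SD, n = 2) and 54.6 ± 14.5 (SD, n = 3), and the log2 difference of 0.48 had a 95% interval of -0.098 to 1.06 (SE 0.25, limma adjusted p = 0.623). Without the NSD2-3 library it was 0.28.

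CDKN2A, the locus of p16 and of the p53 stabilizer ARF, did not differ beyond the spread of the libraries. It had 81.9 and 97.7 normalized counts in Ctr-KD cells and 93.9, 76.5 and 93.7 in NSD2-KD cells, and the groups overlapped. The means were 89.8 ± 11.2 (SD, n = 2) and 88.0 ± 10.0 (SD, n = 3), and the log2 difference was -0.03, with a 95% interval of -0.43 to 0.37 (SE 0.17, limma adjusted p = 0.973). The direction of this small difference is not fixed, since it turned positive under quantile normalization, without the NSD2-2 library and without the second control. The count pools transcripts of p16 and ARF, which cannot be separated in a table per gene. CDKN2A (GRCh37 chr9:21967751-21995300) and CDKN2B (GRCh37 chr9:22002902-22009304) are neighbours on the minus strand and share a 259-base stretch of 93.1% identity. Of the merged exons of CDKN2A, 593 bases (15.3%) overlap the antisense RNA CDKN2B-AS1, which itself was listed at 1.91 and 2.06 normalized counts in Ctr-KD cells and at 0, 1.09 and 1.95 in NSD2-KD cells, at or under the limit of 3 reads.

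CDKN2D, which encodes p19 and lies at GRCh37 chr19:10677136-10679735 on the minus strand, had 21.9 and 28.8 normalized counts in Ctr-KD cells and 14.7, 25.1 and 21.5 in NSD2-KD cells. NSD2-2 lay between the controls and the other siRNAs below them. The log2 difference of -0.32 had a 95% interval of -1.003 to 0.37 (SE 0.30, limma adjusted p = 0.808), with means of 25.4 ± 4.88 (SD, n = 2) and 20.4 ± 5.28 (SD, n = 3).

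CDKN3, the phosphatase, had 66.7 and 54.5 normalized counts in Ctr-KD cells and 27.6, 20.8 and 35.1 with NSD2-1, NSD2-2 and NSD2-3, from 70, 53, 30, 19 and 36 reads. Each NSD2-KD library lay below both controls, at 45.5%, 34.2% and 58.0% of the Ctr-KD mean. The means were 60.6 ± 8.60 (SD, n = 2) and 27.8 ± 7.20 (SD, n = 3), a ratio of 0.459. The log2 difference was -1.12 (SE 0.26, 95% interval -1.72 to -0.52), with an adjusted p of 0.241 by limma, 0.176 by edgeR and 0.251 by DESeq2, and 0.849% of all tested genes had a more negative difference. Its promoter is shown because it carries the only CHR among the members' entries. The CHR and CCAAT boxes are elements known from genes whose transcripts peak in G2 and mitosis. The gene lies at GRCh37 chr14:54863567-54886936, and the promoter at GRCh38.p14 chr14:54396757-54397056, both on the plus strand, with CCAAT and CHR matches in capitals.
CDKN3 promoter: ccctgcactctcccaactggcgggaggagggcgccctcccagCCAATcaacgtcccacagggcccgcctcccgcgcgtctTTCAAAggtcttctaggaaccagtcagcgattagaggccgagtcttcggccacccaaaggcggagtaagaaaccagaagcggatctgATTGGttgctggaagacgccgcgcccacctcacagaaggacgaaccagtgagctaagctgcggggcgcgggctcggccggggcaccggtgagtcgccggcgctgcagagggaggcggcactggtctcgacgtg
The CHR begins at position -170 on the minus strand, and CCAAT boxes begin at -208 on the plus strand and at -83 on the minus strand. No GC box and no E2F word is in this window, where 65.7% of the bases are G or C. Promoter entries were found for 7 of the 8 members, CDKN1C having none, and 7 of their 10 entries hold a GC box, 4 hold CCAAT, 1 holds a CHR and 1 an E2F word.

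**Figure D2:**
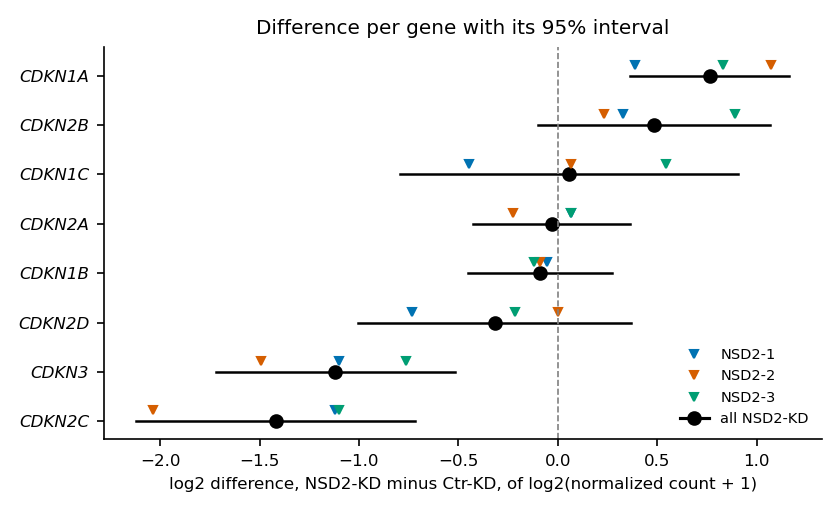
Log2 difference of each member (x axis, NSD2-KD minus Ctr-KD, of log2(normalized count + 1)), with black points for the limma estimate, bars for its unadjusted 95% interval and triangles for each siRNA against the Ctr-KD mean. The intervals of CDKN1A, CDKN2C and CDKN3 exclude 0, and the triangles of CDKN2C run from -2.04 (NSD2-2) to -1.10 (NSD2-3).

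The siRNAs did not rank alike across the members. NSD2-2 stood farthest from the controls at CDKN1A (log2 of 0.39, 1.07 and 0.83 for NSD2-1, NSD2-2 and NSD2-3), at CDKN2C (-1.12, -2.04 and -1.10) and at CDKN3 (-1.10, -1.49 and -0.76). At CDKN2B it was the nearest to the controls, with 0.33, 0.23 and 0.89, and NSD2-3 stood farthest. Remaining NSD2 transcript lay within a narrow band, 18.1% to 19.9% of control, across the same libraries. With 1 library for each siRNA, none of these differences between siRNAs has a replicate, and none was tested.

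To set the members side by side, levels were divided by the length of each gene's merged exons in kb. In Ctr-KD cells CDKN1A stood at 627 normalized counts per kb, rank 69 of 11044 genes with a length, far above CDKN3 at 33.1, CDKN2C at 32.5, CDKN2A at 23.1, CDKN2D at 16.8, CDKN2B at 9.57, CDKN1B at 9.22 and CDKN1C at 4.19. CDKN3 and CDKN2C were neighbours in this order that did not differ beyond their spread, as were CDKN2B and CDKN1B. In NSD2-KD cells CDKN1A stood at 1085 per kb and CDKN2A, at 22.7, was next, ahead of CDKN3 at 15.2, CDKN2B at 13.7, CDKN2D at 13.6, CDKN2C at 12.4, CDKN1B at 8.63 and CDKN1C at 4.56. The libraries of CDKN3, CDKN2B, CDKN2D and CDKN2C overlapped there. The order below CDKN1A depends on the length used. With the length of 1 transcript per gene in place of merged exons, CDKN2A stood at 91.9 per kb and CDKN1B at 35.4 in Ctr-KD cells, since their merged exons (3885 and 9255 bases) are much longer than the transcript used (978 and 2411 bases).

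Summed per kb, the CIP/KIP members came to 630 and 650 in Ctr-KD cells and to 831, 1333 and 1130 in NSD2-KD cells, a sum made up almost wholly of CDKN1A. The INK4 sums were 80.3 and 83.7 in Ctr-KD and 60.5, 55.2 and 71.1 in NSD2-KD cells. The ratio of CIP/KIP to INK4 transcript was therefore 7.85 and 7.76 in the controls and 13.7, 24.2 and 15.9 in the knockdowns. With the length of 1 transcript per gene, this ratio was 6.09 and 5.66 against 8.75, 15.8 and 10.9. The INK4 sums by that length were 150.3 and 167.4 in Ctr-KD and 137.2, 120.8 and 149.6 in NSD2-KD cells. By that length NSD2-3 was nearly level with the lower control, so the size of the INK4 difference depends on the length used. By merged exons, CDKN1A made up 86.9% and 86.7% of the summed level of the 7 inhibitors in Ctr-KD cells and 91.9%, 95.1% and 92.9% in NSD2-KD cells. By the length of 1 transcript per gene it made up 82.0% and 80.8% against 86.7%, 92.0% and 89.0%. Within the INK4 sum per kb of merged exons, CDKN2C made up 45.2% and 34.2% in the controls and 24.2%, 13.8% and 20.9% in the knockdowns, and CDKN2A made up 26.3% and 30.0% against 39.9%, 35.7% and 33.9%. With the length of 1 transcript per gene the share of CDKN2C was 25.1% and 17.8% against 11.1%, 6.54% and 10.3%, and CDKN2A was the leading member in every library, at 55.7% and 59.7% in the controls and 70.0%, 64.7% and 64.1% in the knockdowns. Which member led in the controls therefore depends on the length used, while the share of CDKN2C was lower in each knockdown library than in both controls with either length. The share of CDKN2B, by merged exons, was 10.4% and 12.9% in Ctr-KD and 19.8%, 20.3% and 25.1% in NSD2-KD cells. By the length of 1 transcript per gene it was 5.76% and 6.70% against 9.05%, 9.62% and 12.4%. These sums and shares are descriptions and were not tested.

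**Figure D3:**
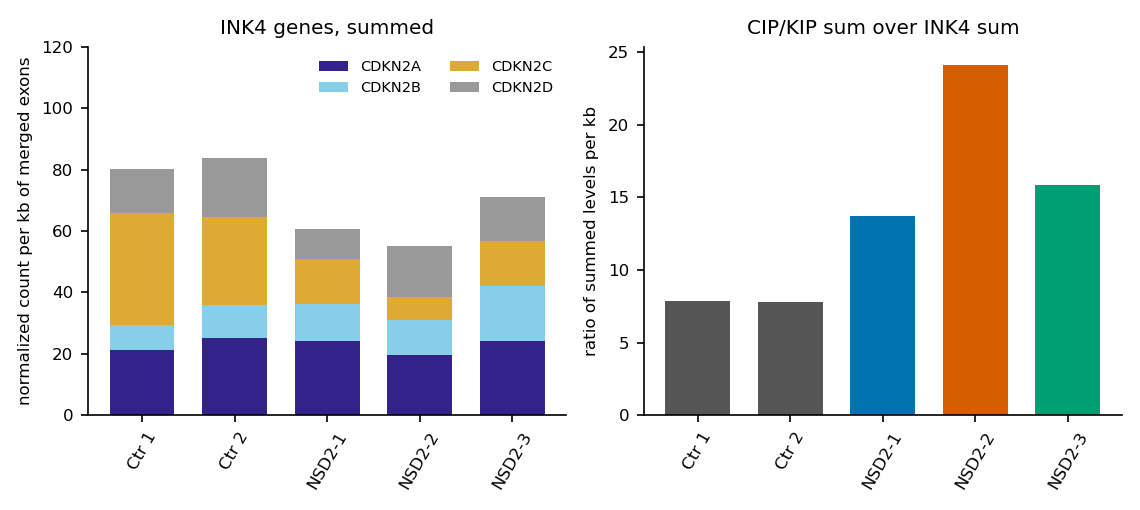
Left, summed level of the 4 INK4 members in each library (y axis, normalized count per kb of merged exons, stacked by gene); right, summed level of the CIP/KIP members over that of the INK4 members (ratio, no unit). The CDKN2C band is 45.2% and 34.2% of the bar in the controls and 13.8% to 24.2% in the knockdowns, and the ratio is under 8 in both controls and 13.7 or more with every siRNA.

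The list of kinases and cyclins held 16 genes, all tested, among them MNAT1, the assembly factor of the CDK7 complex, and PCNA, the replication clamp that p21 binds. Limma called 0 higher and 0 lower, 13 of 16 had a negative difference and the median was -0.29, with 8 wholly below the controls and 1 wholly above. CCNE2, the E-type cyclin that pairs with CDK2, had 20.0 and 17.5 normalized counts in Ctr-KD and 9.20, 4.37 and 4.88 in NSD2-KD cells (difference -1.52, adjusted p = 0.267). CDK6, a target of the INK4 proteins, had 914 and 934 against 576, 180 and 747, so that NSD2-2 was far below the other siRNAs (-1.11, adjusted p = 0.557). CDK7, the kinase that activates other CDKs, was the gene wholly above the controls, with 93.4 and 73.0 against 107, 149 and 129 (0.61, adjusted p = 0.356).

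Downstream of these kinases, 10 of 13 genes of the RB and E2F families were tested, 0 were called, 9 had a negative difference and 5 lay wholly below the controls (median -0.35). RBL1, which encodes the RB relative p107, had 57.2 and 75.1 normalized counts in Ctr-KD and 27.6, 21.8 and 24.4 in NSD2-KD cells (-1.38, adjusted p = 0.138). E2F1, an activator of S phase genes, had 53.3 and 75.1 against 23.9, 20.8 and 40.0 (-1.19, adjusted p = 0.269). Both lists lean to lower levels, beside a median of -0.0089 and 13.9% wholly below among all tested genes.

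Genes that act on the inhibitors themselves leaned less. Of 16 genes for turnover of the inhibitor proteins, all tested, 0 were called, 7 had a positive and 9 a negative difference, and the median was -0.034. DTL, the receptor that hands p21 to a cullin ligase in S phase, had 58.1 and 63.8 normalized counts in Ctr-KD and 17.5, 2.18 and 18.5 in NSD2-KD cells, the value with NSD2-2 being under the limit of 3 reads (-2.56, adjusted p = 0.306). CDC20, an activator of the anaphase-promoting complex, had 207 and 250 against 129, 84.1 and 122 (-1.04, adjusted p = 0.197). On the other side stood RBX1, a subunit of cullin ligases, at 0.36 (adjusted p = 0.597) and UBE2R2, a ubiquitin-conjugating enzyme, at 0.33 (adjusted p = 0.496).

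Of 28 regulators of transcription of the inhibitors, 25 were tested, 0 were called, 10 had a positive and 15 a negative difference, and the median was -0.085. KLF4, a factor known to act on the CDKN1A promoter, had 21.0 and 22.6 normalized counts in Ctr-KD and 35.0, 37.1 and 27.3 in NSD2-KD cells (0.57, adjusted p = 0.513). TGFB1, the cytokine known to induce CDKN2B, differed by 0.23 (adjusted p = 0.600) and SMAD2, which carries its signal, by -0.56 (adjusted p = 0.401). EZH2, the Polycomb methyltransferase known for silencing CDKN2A in growing cells, had 55.3 and 52.5 against 33.1, 21.8 and 35.1 (-0.85, adjusted p = 0.343).

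Other targets of p53 were listed as 20 genes beside CDKN1A, all tested. None was called by limma (0 higher, 0 lower), 6 were higher at an unadjusted p under 0.05, 17 had a positive difference and 10 lay wholly above the controls, with a median of 0.20. Among all tested genes, 4.19% were higher at an unadjusted p under 0.05 and 13.8% lay wholly above. BTG2, an antiproliferative gene, had 30.5 and 29.8 normalized counts in Ctr-KD and 52.4, 149.7 and 127.9 in NSD2-KD cells (1.70, adjusted p = 0.241). GDF15, a secreted stress factor, had 101 and 111 against 211, 296 and 139 (0.95, adjusted p = 0.325). MDM2, FAS and TP53INP1 had negative differences of -0.019, -0.17 and -0.14, all with overlapping groups.

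The 54 genes of G2 and M phase were listed because CDKN3 is known as a transcript of that phase. All were tested, 53 had a negative difference, 49 lay wholly below the controls and 44 were lower at an unadjusted p under 0.05, with a median of -0.95, whereas 13.9% of all tested genes lay wholly below and 4.99% were lower at that p. Limma called 1 of them, SMC4, a condensin subunit that fell by 1.07 on the log2 scale (adjusted p = 0.0322), from 497 and 536 normalized counts to 274, 221 and 242. MKI67, the proliferation marker, had 912 and 967 in Ctr-KD and 481, 217 and 110 in NSD2-KD cells (-2.05, adjusted p = 0.259), and AURKB, a mitotic kinase, had 80.0 and 102 against 34.0, 21.8 and 45.9 (-1.45, adjusted p = 0.201). CDKN3, at -1.12, lay close to the median of this list. The medians for NSD2-1, NSD2-2 and NSD2-3 were -0.82, -1.35 and -0.58 over these genes and 0.17, 0.55 and 0.35 over the p53 targets, with all tested genes between 0.0044 and 0.012. The part of a changed share of cycling cells in the values of CDKN2C and CDKN3 was not tested.

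**Figure D4:**
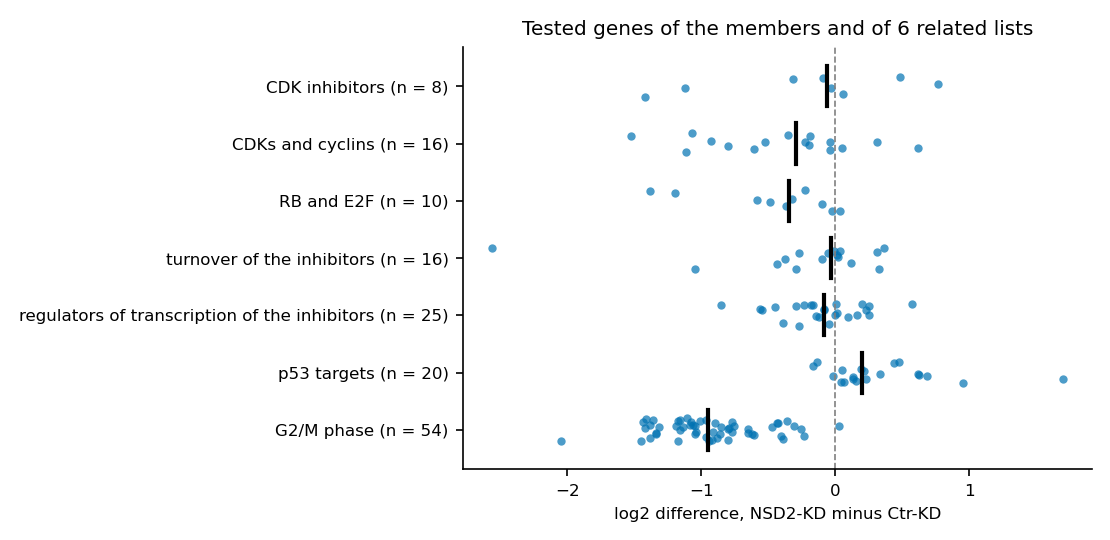
Log2 difference (x axis, NSD2-KD minus Ctr-KD) of each tested gene, 1 point a gene, for the 8 members and the 6 related lists (rows), with a black bar at the median. The members spread from -1.42 to 0.76 around a median of -0.06, the G2/M genes lie to the left with a median of -0.95 and the p53 targets slightly to the right with a median of 0.20.

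For the members that lay wholly beyond the controls by at least 0.5 on the log2 scale, the genes with the nearest values over the 5 libraries were sought among genes that averaged 100 normalized counts or more. CDKN1A was nearest to REV3L, a DNA polymerase subunit, at a root mean square distance of 0.155 on the log2 scale, followed by PSMD3 (0.156), PITPNM2 (0.168), JUP (0.180) and CDK7 (0.185). CDKN2C was nearest to ASPM, a spindle pole protein (0.187), then TMPO (0.217), LMNB1 (0.237), KIF11 (0.256) and MCM7 (0.281). For CDKN3 the nearest were MCM4 (0.0885) and MCM7 (0.0971), subunits of the replicative helicase, then DLGAP5 (0.148), POLE (0.155) and MCM6 (0.161). MCM7 is on both lists. CDKN2B, at 0.48, fell just short of the limit of 0.5. A short distance describes 5 libraries only and carries no test.

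**Figure D5:**
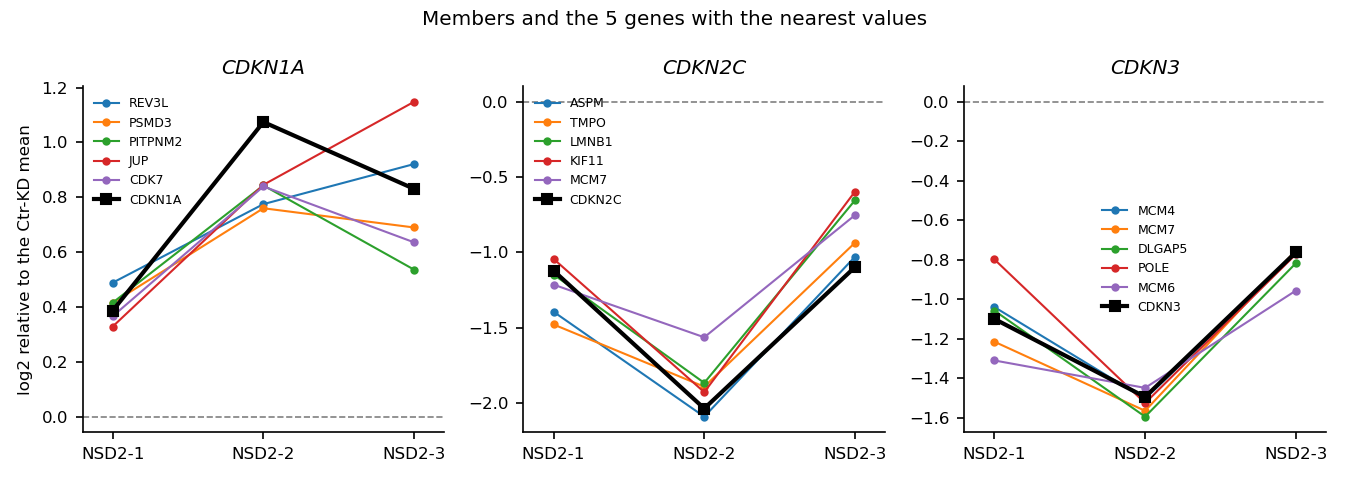
Log2 value relative to the Ctr-KD mean (y axis) in the 3 NSD2-KD libraries (x axis, by siRNA) for CDKN1A, CDKN2C and CDKN3 (black squares) and the 5 genes nearest to each (coloured circles), joined by lines to guide the eye. Around CDKN2C and CDKN3 the lowest values are those with NSD2-2. The genes were picked by nearness to these members over the same libraries, so their shared order is no separate result. CDKN1A is highest with NSD2-2 at 1.07.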

How the data were processed

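Libraries were made from poly(A) RNA of 2 Ctr-KD and 3 NSD2-KD samples of IMR-90 cells and sequenced as single-end reads. According to the supporting procedures and the submitters' processing notes, the authors trimmed reads (Trimmomatic), aligned them (HISAT2) to hg19, the same assembly as GRCh37, retained those with a unique position (SAMtools) and counted reads on each gene (featureCounts). Which annotation was counted, and whether by strand, is not given in the sources used here. The deposited signal is each gene's count divided by 1 DESeq2 size factor per library, so that libraries can be compared on the premise that the bulk of genes stayed level. A second deposited table holds the authors' own DESeq2 comparison (mean, log2 fold change, standard error, statistic and p-values) and was not used.

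Reads were recovered by dividing each library by its smallest value above 0, after which 100% of values were whole (tolerance 0.001). Totals were 2769316 and 2579675 reads in Ctr-KD and 2845063, 2473691 and 2705611 in NSD2-KD libraries, and precision is lowest for the genes with few reads. Genes that averaged 10 normalized counts or more were compared as log2(normalized count + 1) with limma 3.58.1 (mean-variance trend, no covariates, two-sided, R 4.3.3), Benjamini-Hochberg adjustment over 11313 genes and a threshold of 0.05. A log2 difference with this pseudocount understates changes of low genes. Counting intervals are exact Poisson intervals at 95%.

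Alternatives were other pseudocounts (0.5 and 5), other filters (none, or a mean of 50), robust estimation or no trend in limma, quantile normalization, the Ctr-KD libraries as 1 sample, the replicate number as a block, each replicate left out, and edgeR 4.0.16 with TMM, limma-voom and DESeq2 1.42.0 run on recovered reads. The fits were also run on simulated counts in which every library had the same spread beyond counting noise. In these data the controls were closer to each other than the knockdown libraries were, so the simulated setting differs from them.

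The members and lists were chosen with earlier results of these data known. Named in the text are all members, NSD2, every gene called in a list and, per list, the 2 highest and 2 lowest genes among those with every NSD2-KD library outside the range of the controls on the same side, plus the 5 genes nearest to a member. Negative members of the p53 list, MNAT1 and PCNA were named after their values were seen. The G2/M list came with the Seurat package and the others were written by hand from general knowledge. The lists are not fully separate. CDK1 and CCNB2 are in both the G2/M list and that of kinases and cyclins, and CDC20 and CKS1B in both the G2/M and turnover lists. Exon lengths and overlaps came from GENCODE on GRCh37 (89.2% of listed names matched, and 97.6% of tested genes had a length), shared stretches from blastn 2.17.0, and promoters from RefSeq on GRCh38.p14.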

Additional observations from a re-analysis of the deposited data

How the results depend on the processing

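CDKN2B, CDKN2D and CDKN3 kept their direction and stayed short of the threshold in all 16 alternatives that gave them a value. Their log2 differences ran from 0.28 to 0.67, -0.51 to -0.11 and -1.30 to -0.93. CDKN3 came very near the threshold, with a limma adjusted p of 0.0501 under the replicate block. The lowest adjusted p was 0.485 for CDKN2B and 0.659 for CDKN2D, both in limma without the NSD2-2 library. CDKN1A and CDKN2C kept their direction in 17 of 17 but crossed the threshold in some. DESeq2 gave 0.79 for CDKN1A and -1.38 for CDKN2C and so called 1 member higher and 1 lower. With the replicate block, which leaves NSD2-3 without a partner and so without weight, the values were 0.73 (adjusted p = 0.0487) and -1.58 (adjusted p = 0.0190), again 1 member called each way, and CDKN1C turned to -0.19. Whether the shared numbers pair the samples is not known. Deviations of same-numbered libraries had correlations of -0.015 and -0.027. Since the 2 controls differed by little more than counting noise, these correlations cannot show a pairing or its absence. Under quantile normalization CDKN2A turned to 0.0052. Over the libraries left out in turn, the log2 difference ran from 0.61 to 0.95 for CDKN1A, -0.21 to 0.032 for CDKN1B (positive without Ctr-KD replicate 2), -0.19 to 0.31 for CDKN1C (negative without NSD2-3), -0.16 to 0.096 for CDKN2A (0.096 without Ctr-KD replicate 2 and 0.067 without NSD2-2) and -1.59 to -1.11 for CDKN2C, with 0 to 1 members called higher and 0 lower. The causes of these shifts were not tested. With 1 Ctr-KD library left, that library is assumed to vary like the others.

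Among genes of the lists, 0 were called higher and 1 lower. Higher calls became 1 with DESeq2, 1 with the replicate block and 0 to 1 with a library left out, and lower calls became 0 without the trend, 2 with robust estimation, 2 with edgeR, 14 with DESeq2, 31 with the replicate block, 0 with the Ctr-KD libraries as 1 sample and 0 to 5 with a library left out. Among all tested genes, 4 were called higher and 6 lower. Higher calls became 0 without the trend, 8 with quantile normalization, 15 with DESeq2, 18 with the block, 0 with Ctr-KD as 1 sample and 0 to 8 with a library left out, and lower calls became 1 without the trend, 11 with edgeR, 41 with DESeq2, 84 with the block, 0 with Ctr-KD as 1 sample and 0 to 22 with a library left out. A minimum mean of 50 left 4 members with a value. With 8 to 16 reads a library, counting error alone leaves CDKN1C undecided.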
